A study of Rattus norvegicus with 12 samples.

Results

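The response of rat liver cells to human amniotic mesenchymal stromal cells (hAMSC) was not the same in the pair of library sets that these samples form, and the genes that carried the difference are described here. The 8 libraries used were the hAMSC and Veh libraries, of 12 in the whole series. They were chosen by condition and by set: hAMSC 15, hAMSC 16, Veh 19 and Veh 20 made up the higher-numbered set, and hAMSC 7, hAMSC 8, Veh 17 and Veh 18 the lower-numbered set, with 2 libraries for each condition in each set. For each gene the hAMSC minus Veh difference was taken within each set, and the difference between those differences (the interaction, higher-numbered minus lower-numbered set, on the log2 scale) was the measure by which genes were chosen. Of 13976 genes tested, 28 (0.2%) had an adjusted p under 0.05 for the interaction (edgeR's quasi-likelihood test, Benjamini-Hochberg). Because the interaction chose these genes, its values and the differences within each set are a description of them. The hAMSC minus Veh difference averaged over both sets was not itself used to choose them and is the value that is tested below. It comes from the same libraries as the interaction.

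The cells were labelled as primary hepatic stellate cells, taken by a density gradient from cirrhotic rats that had inhaled CCl4, a liver toxin, over a long time, so that both conditions share this exposure. In the hAMSC condition 15000 viable human cells sat in a Transwell insert, which separates the cultures by a porous membrane, and the exposure lasted 24 h. The Veh condition carries vehicle by its label, and its protocol is not spelled out further. The sources used here give neither strain, age and sex of the rats nor whether libraries came from separate animals or cultures. The sets are not in the labels: they were seen in the expression values, where they lie along the first principal component (70.6% of the variance over 2000 genes), and what separates them is not known.

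Several of the genes described below are known from liver sinusoidal endothelial cells, the fenestrated cells that line the hepatic sinusoids, take up waste molecules from the blood through scavenger receptors and carry few of the tight junctions of other vessels. In liver injury these cells lose such features in a process called capillarisation, and their signals help to set the state of the neighbouring stellate cells. Endothelial cells respond to neighbours through receptors for VEGF, angiopoietins and cytokines of the interleukin-6 family, and hold their junctions and cytoskeleton through small GTPases.

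Total expected counts ran from 27382724 to 34922211 over the 8 libraries, and the counts of the 2 libraries of each cell of the design correlated across genes at a Spearman coefficient of 0.993 to 0.995, a value across genes and not across samples. Levels are given as CPM, the counts scaled to a common library size, after TMM scaling, and they compare libraries for 1 gene, not genes with each other. On the first principal component the 4 lower-numbered libraries lay between -53.9 and -51.4, Veh 19 and Veh 20 at 53.9 and 54.0, and hAMSC 15 and hAMSC 16 at 45.4 and 48.6, so these hAMSC libraries lay nearer to the lower-numbered set than the Veh libraries of their own set did. The labelled cell type was not matched by its defining markers: Lrat, which stores vitamin A in stellate cells, was at or under 0.370 CPM in every library, Des at or under 1.48 and Acta2, the smooth muscle actin of myofibroblasts, at or under 2.53. The macrophage genes Cd68 (1525 to 1680 CPM) and Clec4f, a Kupffer cell lectin (735 to 1030 CPM), were abundant in all 8. The macrophage list as a whole was not level across the sets. Its summed level was 22290 and 21980 CPM with hAMSC and 23590 and 22700 CPM with Veh in the higher-numbered set. For the other set the sums were 10910 and 10420 against 10740 and 10120 CPM. The reason for this difference was not tested.

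**Figure D1:**
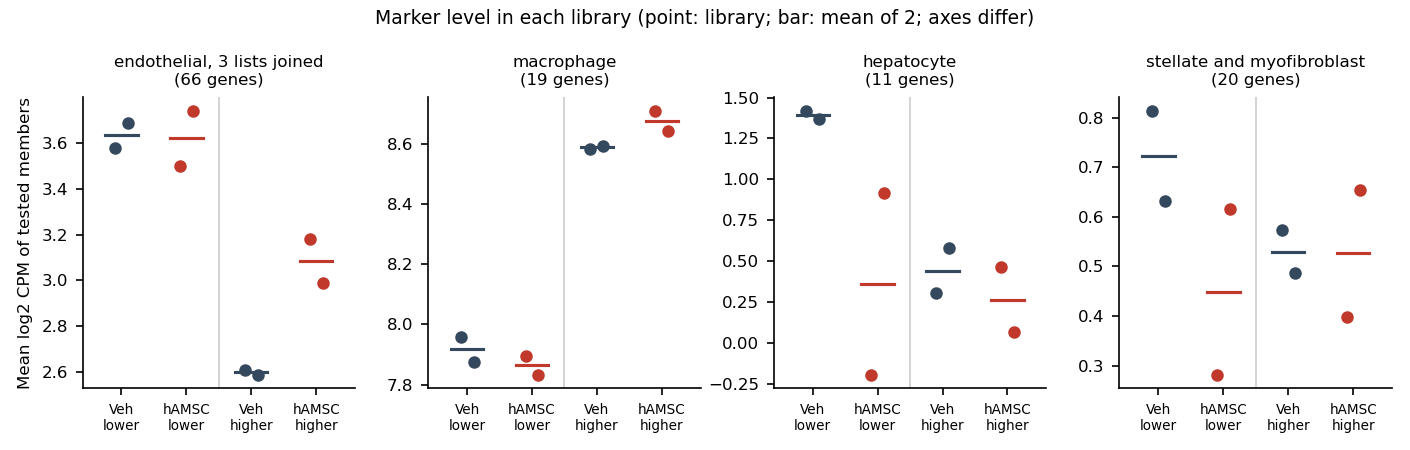
Mean log2 CPM of 4 marker groups in each of the 8 libraries: 66 endothelial, 19 macrophage, 11 hepatocyte and 20 stellate and myofibroblast genes, with the hAMSC and Veh libraries of each set as separate points. In the higher-numbered set the endothelial mean was 2.99 and 3.18 with hAMSC and 2.59 and 2.61 with Veh, while in the lower-numbered set the conditions overlapped.

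Of the 28 genes, 24 had a positive interaction (0.172% of all genes tested) and 4 a negative one (0.0286%); this balance was 87 to 71 without hAMSC 16 and 311 to 222 with no expression filter. In all 24 the hAMSC minus Veh difference in the higher-numbered set was above 0, with a median of 1.15 on the log2 scale (0.34 to 2.94), and both hAMSC libraries lay above both Veh libraries, an order that 18.7% of all genes tested had there. In the lower-numbered set the same 24 genes had a median of -0.12 (-0.54 to 0.32), 9 above 0 and 15 below 0. The hAMSC libraries of that set lay above both Veh libraries for 4 of the 24 (21.4% of all genes), below both for 8 (22.1% of all genes) and overlapped with them for 12. Within the sets, 23 of the 24 passed in the higher-numbered set (all but Adm), where 0.809% of all genes rose. In the lower-numbered set 0 of the 24 passed, against 0.0787% of all genes. The within-set differences are terms of the interaction, so these counts follow in part from the choice of genes. Of the 24, 20 (83.3%) were more than 1 log2 unit higher in the Veh libraries of the lower-numbered set than in those of the higher-numbered set (10.7% of all genes tested); that Veh difference is itself a term of the interaction, so the share follows in part from the choice of genes. Their median level was 20.9 CPM and that of all genes tested 20.3 CPM.

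**Figure D2:**
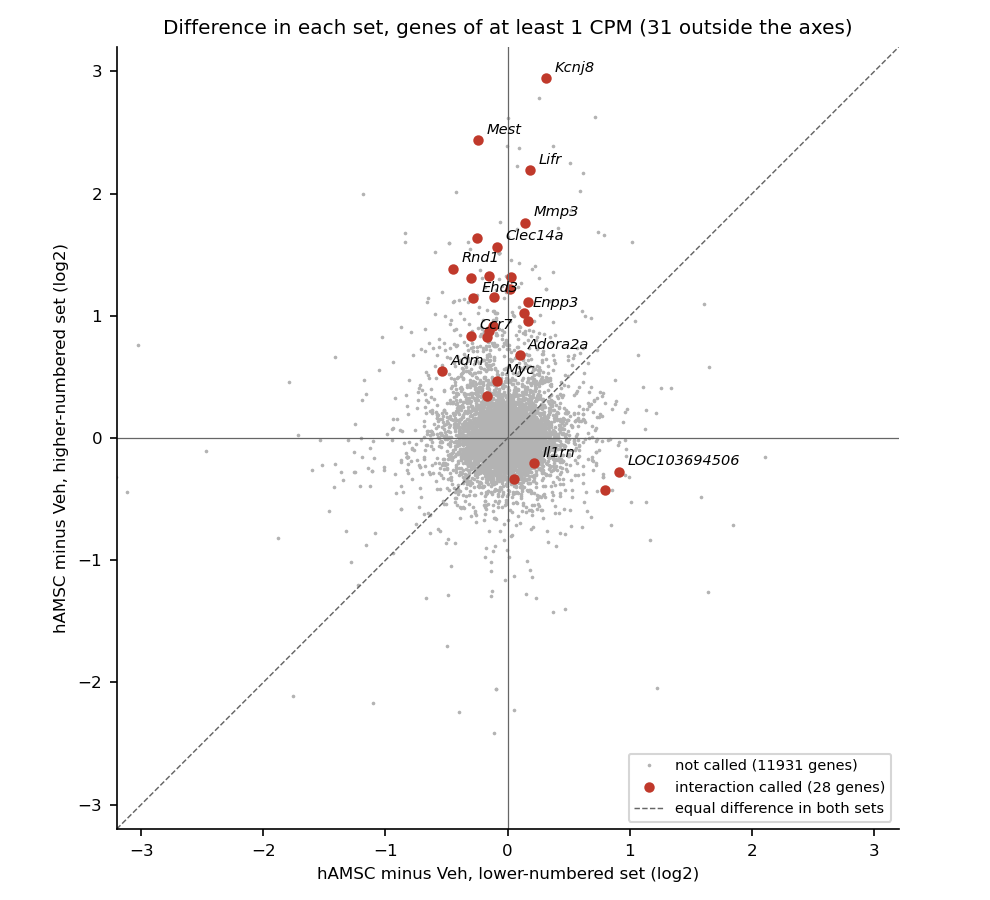
Log2 difference of hAMSC minus Veh in the lower-numbered set (horizontal axis) and in the higher-numbered set (vertical axis) for 11959 genes with a mean of at least 1 CPM, with the 28 genes called for the interaction marked; 31 genes lie outside the axes. The 24 genes of positive interaction sit above the diagonal between 0.34 and 2.94 on the vertical axis and between -0.54 and 0.32 on the horizontal axis.

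Ehd3 had the smallest p for the interaction. It encodes an EH-domain protein of endosomal recycling and is known for its high level in the endothelium of liver sinusoids and kidney glomeruli. In the higher-numbered set Ehd3 was at 19.9 and 17.96 CPM with hAMSC and at 8.40 and 8.69 CPM with Veh. The lower-numbered libraries held it at 23.9 and 27.6 CPM with hAMSC and at 29.7 and 33.0 CPM with Veh. The groups did not overlap in either set, and they were in opposite order. The difference was 1.15 ± 0.12 (log2, SE, n = 2 per condition) in the higher-numbered set and -0.29 ± 0.11 in the lower-numbered set, which gave an interaction of 1.43 ± 0.16. Of the other EH-domain genes, Ehd1 (interaction -0.11), Ehd2 (-0.08) and Ehd4 (0.03) were tested and not called.

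Clec14a, a C-type lectin-like receptor of the endothelial surface, was at 17.5 and 16.8 CPM with hAMSC and at 5.75 and 5.85 CPM with Veh in the higher-numbered set. Its lower-numbered levels were 23.5 and 34.5 CPM with hAMSC and 27.5 and 34.0 CPM with Veh, so the conditions overlapped there. Its interaction was 1.65 ± 0.23. The hAMSC libraries of the higher-numbered set, 2.96-fold above Veh, still lay below all 4 lower-numbered libraries. Of the relatives of Clec14a, Cd93, a receptor of endothelium and myeloid cells, had an interaction of 0.26 and Thbd, the thrombin receptor thrombomodulin, one of -0.13, and neither was called.

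Small GTPases that shape the cytoskeleton held 2 of the called genes. Rnd1, which loosens actin fibres and cell adhesion, was at 11.95 and 8.87 CPM with hAMSC and at 3.81 and 4.16 CPM with Veh in the higher-numbered set. Its levels in the other set were 29.4 and 33.3 CPM with hAMSC and at 40.8 and 44.6 CPM with Veh. The order of the conditions was opposite in the sets, with differences of 1.39 ± 0.18 and -0.45 ± 0.15 and an interaction of 1.83 ± 0.23. Rhoj, a GTPase of the Cdc42 group found in endothelium, had 6.90 and 6.63 CPM with hAMSC against 2.72 and 2.70 CPM with Veh in the higher-numbered set. Rhoj lay between 8.98 and 10.2 CPM in all 4 lower-numbered libraries, and its interaction was 1.30 ± 0.21. Rnd2 (0.34) and Rnd3 (0.06), the nearest relatives of Rnd1, were not called.

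**Figure D3:**
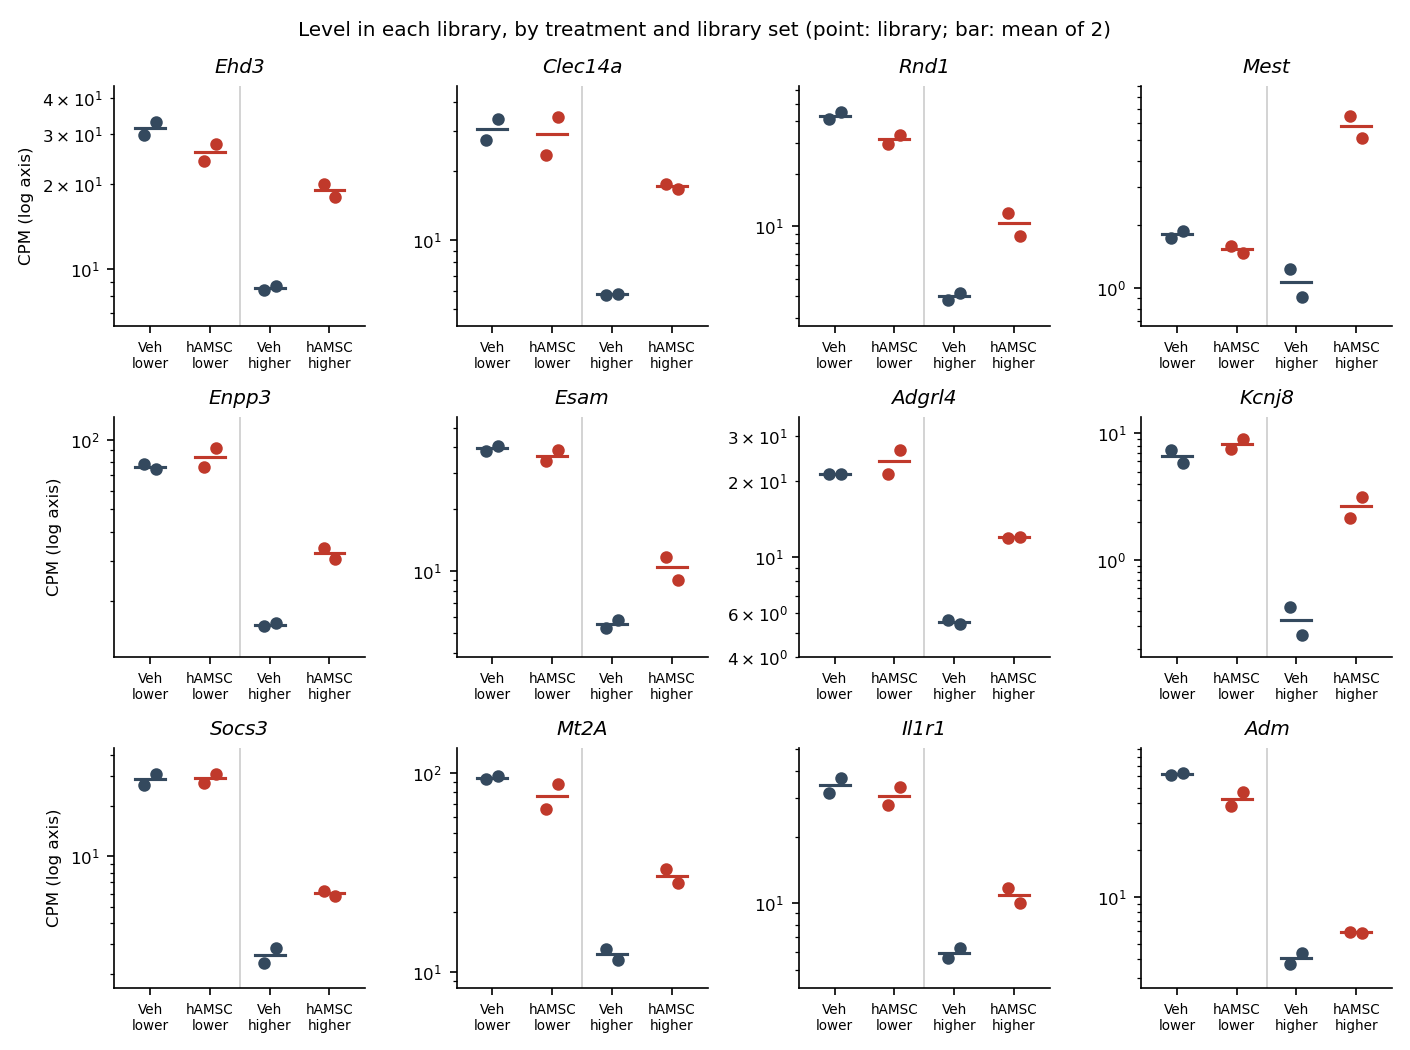
CPM on a log axis of 12 of the called genes in each of the 8 libraries, by set and condition. In the higher-numbered set both hAMSC points lie above both Veh points in every panel, and in the lower-numbered set the conditions overlap or stand in the opposite order in most panels.

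Esam and Adgrl4 were the other called members of the endothelial lists. Esam, an adhesion molecule of endothelial junctions, was at 11.8 and 9.09 CPM with hAMSC and at 5.26 and 5.77 CPM with Veh in the higher-numbered set. It lay between 34.2 and 40.6 CPM in the lower-numbered set, and its interaction was 1.04 ± 0.16. Adgrl4, an adhesion G protein-coupled receptor of vessels, was at 11.89 and 11.98 CPM with hAMSC and at 5.61 and 5.41 CPM with Veh in the higher-numbered set. The other set had 21.3 and 26.5 CPM with hAMSC and at 21.2 CPM in both Veh libraries, and its interaction was 0.95 ± 0.15.

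In the 3 endothelial lists joined (surface receptors and junctions, transcription factors, and sinusoidal genes), 66 of 72 genes in the files were tested. The interaction was above 0 for 55 of the 66, with a median of 0.48, against 7055 of 13976 and a median of 0.0027 over all genes tested. Of the 66, 5 were called with a positive interaction (7.58%, against 0.172% of all genes) and 0 with a negative one. Ehd3, Rnd1 and Clec14a are among these 5 and were placed in the lists because they were already known from these data, so the count is not independent. In the higher-numbered set 15 of the 66 rose with hAMSC and 0 fell, where 113 of all genes (0.809%) rose and 21 (0.15%) fell; the median difference was 0.45. By contrast, 0 of the 66 rose or fell in the lower-numbered set, where the median was -0.05. Ehd3, Rnd1 and Clec14a are also among the 15 that rose, so that count is not independent either.

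Scavenger and uptake receptors of sinusoidal endothelium were among the 15. Lyve1, a hyaluronan receptor that some macrophages also carry, was at 10.8 and 7.99 CPM with hAMSC and at 2.54 and 2.995 CPM with Veh in the higher-numbered set. It was at 83.3 and 117 CPM with hAMSC and at 100 and 108 CPM with Veh in the lower-numbered set. Its interaction of 1.83 ± 0.29 did not pass the threshold (adjusted p = 0.0718, edgeR), although the difference of 1.77 in the higher-numbered set did. Oit3, a sinusoidal gene at low level, was at 3.37 and 2.46 CPM with hAMSC and at 0.247 and 0.694 CPM with Veh in the higher-numbered set, a difference of 2.63 ± 0.46. Gpr182, a scavenger receptor for chemokines on this endothelium, had 9.50 and 7.84 CPM with hAMSC and 3.74 and 2.78 CPM with Veh there. The inhibitory Fc receptor Fcgr2b, shared with macrophages, rose by 0.48 ± 0.05 in the higher-numbered set, from 258 and 272 CPM to 377 and 363 CPM. These genes rose in the higher-numbered set, and their interaction was not called.

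Among the signalling receptors, Kdr, the main VEGF receptor of endothelium, rose in the higher-numbered set by 0.88 ± 0.15, from 11.8 and 9.17 CPM with Veh to 20.3 and 18.4 CPM with hAMSC. Cdh5, the cadherin of endothelial junctions, rose there from 45.1 and 43.6 CPM to 64.8 and 53.7 CPM, a difference of 0.42. Gata4, a factor that holds the sinusoidal character of liver endothelium, rose by 0.76 ± 0.14, while Erg, a factor of all endothelium, had a difference of 0.95 ± 0.21 that did not pass (adjusted p = 0.0713, edgeR). Their interactions (0.71, 0.47, 0.87 and 0.94) did not pass. The endothelial lists were not uniform, with 55 of the 66 interactions above 0 and that of Thbd among those below 0. Tie1 (0.15), Sox7 (0.20), Nos3, the endothelial nitric oxide synthase (0.30), and Fli1 (0.04) had smaller positive interactions, none of them called. Cldn5, a tight junction claudin, had no count in the 4 lower-numbered libraries and was at 0.840 to 1.99 CPM in the higher-numbered ones.

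**Figure D4:**
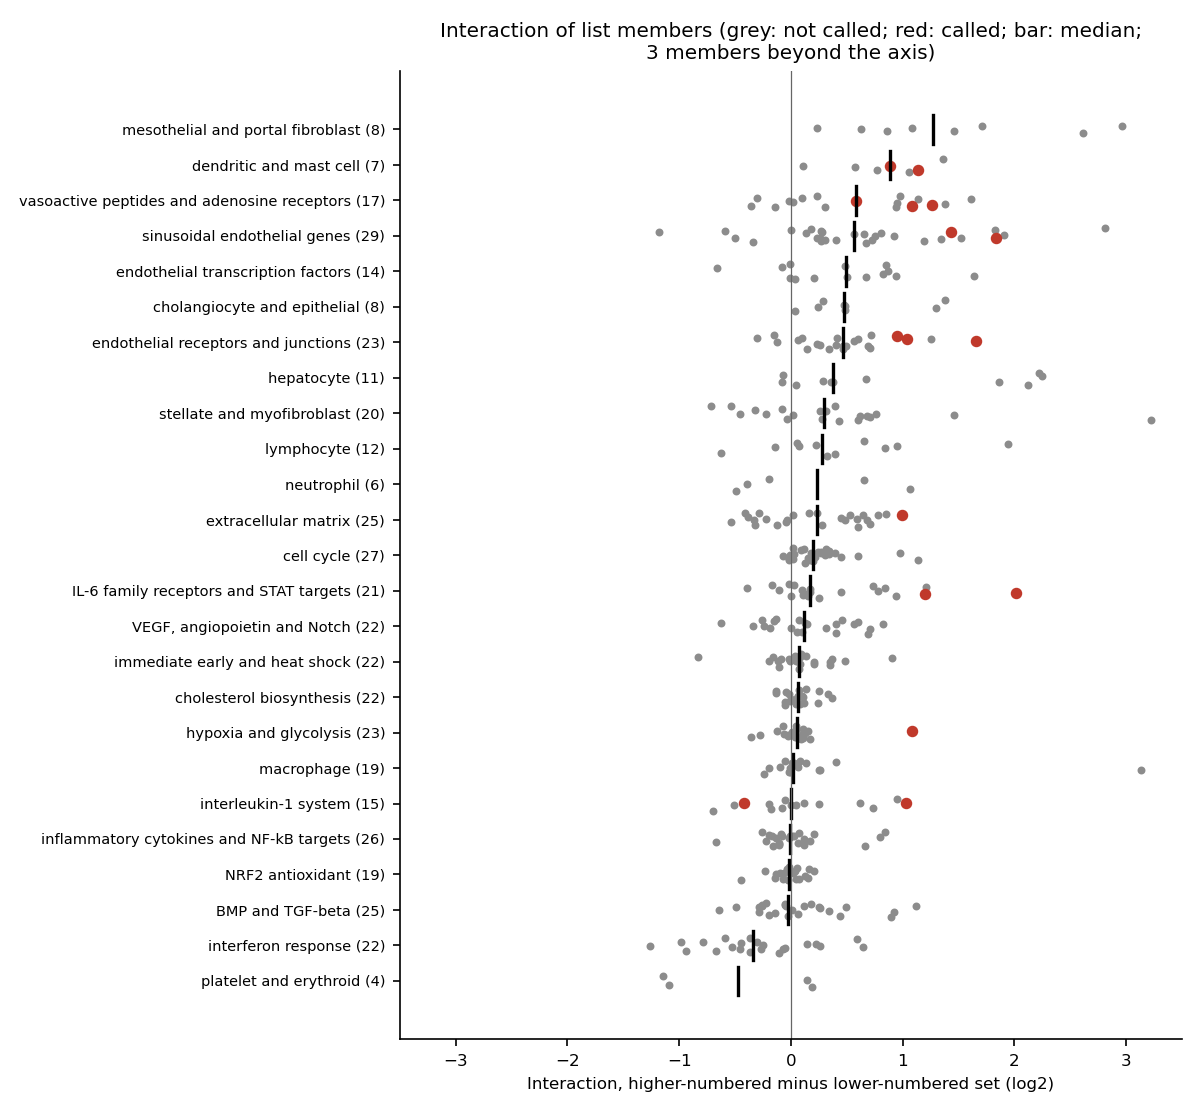
Interaction (log2, higher-numbered minus lower-numbered set) of each tested member of the gene lists, with the median of each list as a bar and the called genes marked; 3 members lie beyond the axis. The medians of the endothelial lists were 0.47, 0.50 and 0.57, and that of all genes tested was 0.0027.

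A positive median interaction was not particular to the endothelial lists. It was 0.48 in the cholangiocyte and epithelial list (8 of 8 above 0, 0 called), 0.38 in the hepatocyte list (9 of 11 above 0, 0 called) and 0.89 in the dendritic and mast cell list. The within-set differences behind these medians were not alike. The cholangiocyte median was 0.08 in the higher-numbered and -0.19 in the lower-numbered set, against 0.45 and -0.05 for the 66 endothelial genes. The cholangiocyte mean log2 CPM was 0.71 in hAMSC 7 and 1.81 to 1.94 in the other lower-numbered libraries. The summed level of the 72 endothelial genes in the files was 2457 and 2305 CPM with hAMSC and 1986 and 2052 CPM with Veh in the higher-numbered set. In the lower-numbered set it was 4718 and 4903 against 4524 and 4529 CPM, and no member was at 0 in all 8 libraries. Fcgr2b, shared with macrophages, held a large part of these sums. It was at 377 and 363 against 258 and 272 CPM in the higher-numbered set, and at 1931 and 1932 against 1696 and 1634 CPM in the lower-numbered set. The macrophage list had a median interaction of 0.02, with 11 of 19 above 0 and 0 called. The hepatocyte list, of which Cyp2c11 was at 0 in all 8, had a median difference of -0.02 in the higher-numbered and -1.16 in the lower-numbered set, with 0 of 11 called in either. Its mean log2 CPM in the lower-numbered set was -0.19 in hAMSC 7, 0.915 in hAMSC 8, 1.42 in Veh 17 and 1.37 in Veh 18. The hepatocyte sum did not fall there, with 739.7 and 641.5 CPM with hAMSC against 676.9 and 607.8 CPM with Veh. The mesothelial and portal fibroblast list, at a sum of 4.85 to 11.4 CPM, had a median interaction of 1.27, with 8 of 8 above 0 and 0 called. Its median difference was 0.07 in the higher-numbered and -0.97 in the lower-numbered set. The dendritic and mast cell list had 7 of 7 above 0, with Enpp3 and Ccr7 called (0.172% of all genes). Its median difference was 0.84 in the higher-numbered and -0.11 in the lower-numbered set. The median interaction of this list is the value of Enpp3. That gene was already known from these data, so neither the median nor the count is independent. The part of a changed cell mixture in the results above was not tested, and in bulk libraries fewer cells of a type and less RNA per cell cannot be told apart.

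The upstream sequence of 3 endothelial genes and of the metallothionein gene described below is printed for reference, as RefSeq gives it on GRCr8 from 250 bases before to 50 after the start of the gene, read along the gene's strand. The files use another build, so these positions do not apply to them. The capitals mark letters found by a search of both strands. They are the ETS core AGGAAG in Ehd3 and the E-box CACGTG in Clec14a. In Rhoj they are 1 fixed spelling of the CArG box of serum response factor, and in Mt2A the metal response core TGCACNC or TGCGCNC. The capitals show the other strand in Ehd3, in Rhoj and in all marks of Mt2A but the last.
Ehd3, chr6:27417396-27417695, minus strand: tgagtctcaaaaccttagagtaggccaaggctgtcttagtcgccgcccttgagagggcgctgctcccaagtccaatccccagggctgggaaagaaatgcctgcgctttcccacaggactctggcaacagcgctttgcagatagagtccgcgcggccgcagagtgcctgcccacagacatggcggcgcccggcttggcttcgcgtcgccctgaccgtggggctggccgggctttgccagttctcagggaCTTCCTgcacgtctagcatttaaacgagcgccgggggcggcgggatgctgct
Clec14a, chr6:81619507-81619806, minus strand: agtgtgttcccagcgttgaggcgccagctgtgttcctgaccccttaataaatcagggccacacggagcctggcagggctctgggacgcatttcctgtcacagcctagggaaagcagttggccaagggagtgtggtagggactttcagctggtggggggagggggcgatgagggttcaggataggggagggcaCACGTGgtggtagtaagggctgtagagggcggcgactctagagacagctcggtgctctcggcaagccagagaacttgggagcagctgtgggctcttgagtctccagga
Rhoj, chr6:99771133-99771432, plus strand: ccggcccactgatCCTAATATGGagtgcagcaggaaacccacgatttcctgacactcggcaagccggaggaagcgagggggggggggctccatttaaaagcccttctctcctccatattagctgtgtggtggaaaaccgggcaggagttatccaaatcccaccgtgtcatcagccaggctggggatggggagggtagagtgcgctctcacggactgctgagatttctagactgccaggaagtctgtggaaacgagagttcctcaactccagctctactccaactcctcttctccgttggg
Mt2A, chr19:10838659-10838958, minus strand: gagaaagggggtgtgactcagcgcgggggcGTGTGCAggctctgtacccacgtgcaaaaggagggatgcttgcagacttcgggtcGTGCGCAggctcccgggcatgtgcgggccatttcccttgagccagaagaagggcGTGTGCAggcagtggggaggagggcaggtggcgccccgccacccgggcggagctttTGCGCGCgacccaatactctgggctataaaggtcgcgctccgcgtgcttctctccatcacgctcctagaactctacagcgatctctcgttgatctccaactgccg

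Of the 28 called genes 20 had a promoter in that table. The ETS core was in 8 of the 20 (40%) and in 34.5% of all 33469 promoters. The E-box was in 2 of the 20 (10%) and in 6.42% of all, and that 1 spelling of the CArG box was in Rhoj alone of the 20 and in 0.0329% of all; other spellings of the box were not searched. The metal response core was in 4 of the 20 (20%) and in 24.2% of all. Mt2A held 4 matches to it, a number that 147 promoters (0.439%) reached or passed. The letters of a STAT site, TTCNNNGAA, were in 1 of the 20 (5%) and in 8.87% of all, and those of an AP-1 site, TGANTCA, in 3 of the 20 (15%) and in 7.33% of all. These are matches of letters only, and the search was chosen after the expression values were seen.

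Kcnj8 encodes the pore of an ATP-sensitive potassium channel known from pericytes and small vessels. It was at 2.16 and 3.15 CPM with hAMSC and at 0.423 and 0.256 CPM with Veh in the higher-numbered set, which are 64 and 86 counts against 12 and 7. The lower-numbered libraries were at 7.49 and 9.01 CPM with hAMSC and at 7.44 and 5.82 CPM with Veh. The difference of 2.94 ± 0.31 in the higher-numbered set was the largest among the 28 genes, with 0.32 ± 0.21 in the other set and an interaction of 2.63 ± 0.38.

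Called genes for enzymes and a nucleoside receptor are given next. Enpp3, a nucleotide-splitting ectoenzyme known from basophils and mast cells, was at 33.9 and 30.5 CPM with hAMSC and at 15.6 and 16.1 CPM with Veh in the higher-numbered set. In the lower-numbered set it was at 75.9 and 91.8 CPM with hAMSC and at 78.4 and 74.6 CPM with Veh, where the conditions overlapped, and its interaction was 0.89 ± 0.12. Of the 6 ENPP genes tested Enpp3 alone was called, with Enpp1 (0.09), Enpp2 (0.15), Enpp4 (-0.30), Enpp5 (-0.15) and Enpp6 (-1.37) not called. Enpep, the aminopeptidase that cuts angiotensin II, was at 12.8 and 12.2 CPM with hAMSC and at 5.65 and 5.55 CPM with Veh in the higher-numbered set. It lay between 6.28 and 7.31 CPM in the other set, so that its hAMSC libraries of the higher-numbered set ended above the lower-numbered libraries; its interaction was 1.27 ± 0.18.

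Upp1, the uridine phosphorylase, was at 12.2 and 10.3 CPM with hAMSC and 5.26 and 6.32 CPM with Veh in the higher-numbered set, with an interaction of 0.80 ± 0.14. Adora2a, an adenosine receptor that raises cyclic AMP, was the gene nearest below the threshold (adjusted p = 0.0484, edgeR). It was at 7.21 and 7.33 CPM with hAMSC and at 4.73 and 4.35 CPM with Veh in the higher-numbered set, and between 56.6 and 61.8 CPM in the other. Its interaction was 0.58 ± 0.11. Nat8l, the enzyme that makes N-acetylaspartate, had 4.98 and 4.29 CPM with hAMSC against 1.66 and 2.05 CPM with Veh in the higher-numbered set and an interaction of 1.48 ± 0.23.

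Secreted and matrix genes included Mmp3, Adamts1, Nid1 and Adm. Mmp3, a stromelysin that degrades matrix, was at 2.90 and 3.23 CPM with hAMSC and at 0.706 and 1.10 CPM with Veh in the higher-numbered set, which are 86 and 88 counts against 20 and 30. It was at 12.2 and 15.1 against 11.5 and 13.3 CPM in the lower-numbered set, where the conditions overlapped, and its interaction was 1.62 ± 0.27. Adamts1, a protease that cleaves versican, had an interaction of 1.89 ± 0.35 and Nid1, a basement membrane glycoprotein, one of 0.99 ± 0.17. In the matrix list Nid1 was the 1 gene called of 25, with 15 above 0 and a median of 0.23.

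Adm, the vasodilator peptide adrenomedullin, which hypoxia also induces, had differences of opposite sign in the sets. It was at 5.96 and 5.83 CPM with hAMSC and at 3.71 and 4.35 CPM with Veh in the higher-numbered set, and at 38.4 and 47.3 against 61.1 and 63.2 CPM in the lower-numbered set. The differences were 0.55 ± 0.14 and -0.54 ± 0.11, neither of them called, and the interaction was 1.09 ± 0.17. The average over the sets was 0.01. Adm was the 1 gene called of 23 in the hypoxia list, whose median interaction was 0.05. Edn1, the vasoconstrictor endothelin 1, rose in the higher-numbered set from 7.55 and 7.82 CPM to 16.9 and 13.8 CPM, while it lay between 6.91 and 8.64 CPM in the lower-numbered set; its interaction of 0.95 ± 0.20 did not pass (adjusted p = 0.0718, edgeR).

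Lifr, the receptor chain for leukaemia inhibitory factor, was at 5.09 and 3.30 CPM with hAMSC and at 0.988 and 0.840 CPM with Veh in the higher-numbered set, and between 4.01 and 5.60 CPM in the lower-numbered set. The interaction was 2.01 ± 0.38. Socs3, the STAT3-induced inhibitor of that receptor family, was at 6.23 and 5.79 CPM with hAMSC and at 2.33 and 2.85 CPM with Veh in the higher-numbered set. The other set had 27.2 and 31.0 against 26.7 and 30.8 CPM, and its interaction was 1.20 ± 0.19. Il6st, the shared chain gp130, rose in the higher-numbered set from 55.5 and 49.9 CPM to 97.1 and 81.6 CPM, a difference of 0.76; its interaction of 0.85 did not pass.

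In a list of 21 tested genes of interleukin-6 family receptors and STAT targets, chosen after these values were seen, 16 had an interaction above 0 with a median of 0.17. Lifr and Socs3 were called (2 of 21, where 0.172% of all genes were called with a positive interaction) and 6 members rose in the higher-numbered set (0.809% of all genes), among them Osmr, the oncostatin M receptor (0.86 ± 0.19), and Stat3 (0.22 ± 0.05). The ligand genes Lif (1.21) and Osm (0.13) and the STAT target Pim1 (0.17) had interactions that did not pass. Il6r, the receptor of interleukin-6 itself, had a negative interaction of -0.39 that did not pass. It was at 161 and 170 CPM with hAMSC and at 189 and 190 CPM with Veh in the higher-numbered set.

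The interleukin-1 pathway held called genes of opposite sign. Il1r1, the signalling receptor, was at 11.8 and 10.01 CPM with hAMSC and at 5.65 and 6.25 CPM with Veh in the higher-numbered set, and at 27.9 and 33.8 against 31.6 and 36.9 CPM in the lower-numbered set. Its interaction was 1.03 ± 0.17. Il1rn, the secreted antagonist of that receptor, was at 314.9 and 283.3 CPM with hAMSC and at 351.4 and 338.0 CPM with Veh in the higher-numbered set. In the lower-numbered set it was at 1674 and 1603 against 1422 and 1396 CPM. The groups did not overlap in either set and stood in opposite order, with an interaction of -0.42 ± 0.08. Of 15 interleukin-1 genes tested, also listed after the values were seen, these were the only ones called, and the median was 0.00.

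Ccr7, the chemokine receptor that leads dendritic cells to lymph nodes, was at 35.4 and 33.2 CPM with hAMSC and at 20.5 and 17.9 CPM with Veh in the higher-numbered set. It was at 15.3 and 20.6 against 22.2 and 21.9 CPM in the lower-numbered set, and its interaction was 1.14 ± 0.17. Its hAMSC libraries in the higher-numbered set thus lay above all other libraries. Mt2A, a metallothionein that binds zinc and copper, was at 32.9 and 28.04 CPM with hAMSC and at 13.1 and 11.5 CPM with Veh in the higher-numbered set, and at 65.7 and 87.7 against 93.5 and 95.8 CPM in the lower-numbered set. The order was opposite in the sets and the interaction was 1.61 ± 0.19. Its paralog Mt1, which shares sequence with it, so that reads could have been split between them, had an interaction of 0.94 that was not called.

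Mest, an imprinted gene for a hydrolase-like protein of mesoderm, had the largest interaction of the 28. It was at 6.53 and 5.13 CPM with hAMSC and at 1.24 and 0.913 CPM with Veh in the higher-numbered set, which are 194 and 140 counts against 35 and 25. It lay between 1.48 and 1.88 CPM in the lower-numbered set, so its level with hAMSC in the higher-numbered set was above every other library. The interaction was 2.68 ± 0.40, and it was the 1 gene called of 11 imprinted genes tested. Smaller values were those of Myc, the growth factor-induced transcription factor (0.56 ± 0.09), and Crip1, a LIM protein (0.51 ± 0.09).

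The 4 genes of negative interaction were Il1rn, Engase, LOC103694506 and ENSRNOG00000021584, the last listed without a symbol; LOC103694506 and ENSRNOG00000021584 fall outside the rule for named genes and were chosen after their values were seen. In all 4 both hAMSC libraries lay below both Veh libraries in the higher-numbered set (18.2% of all genes) and above them in the lower-numbered set. Engase, a cytosolic enzyme that trims N-glycans, was at 229.9 and 230.8 CPM with hAMSC and at 288.8 and 292.6 CPM with Veh in the higher-numbered set. It was at 30.5 and 30.8 against 28.8 and 30.3 CPM in the other, and its interaction was -0.39 ± 0.07. LOC103694506 was at 8.46 and 7.75 CPM with hAMSC and at 4.15 and 4.46 CPM with Veh in the lower-numbered set, where it rose by 0.91 ± 0.14; its interaction was -1.19 ± 0.20. Fchsd2 (-0.39), Cnot6l (-0.45), Met, the hepatocyte growth factor receptor (-0.62), Olr1, an oxidised lipoprotein receptor (-0.37), Nipbl (-0.36), Med13 (-0.33) and Lmbrd2 (-0.50) were the next genes by p and did not pass.

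Lists of other pathways are given here for comparison. The interferon response list had 5 of 22 genes above 0, with a median of -0.33 and 0 called; the Veh libraries of the higher-numbered set disagreed there, with Mx1, an antiviral GTPase, at 125.6 CPM in Veh 19 and at 84.2 CPM in Veh 20. The cell cycle list had 23 of 27 above 0 with a median of 0.20 and 0 called. Lists of VEGF and Notch genes (14 of 22 above 0, median 0.12), BMP and TGF-beta genes (12 of 25, median -0.03), NF-kB targets (12 of 26, median -0.01) and NRF2 targets (9 of 19, median -0.02) had 0 called as well. The list of cholesterol biosynthesis had 15 of 22 above 0, a median of 0.06 and 0 called, and that of immediate early and heat shock genes 14 of 22, a median of 0.08 and 0 called.

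Taken within each set, 134 genes (0.959%) were called in the higher-numbered set and 11 (0.0787%) in the lower-numbered set. At an unadjusted p under 0.05 (edgeR) the order was the other way, with 1198 genes in the higher-numbered and 1628 in the lower-numbered set. The counts of calls are thus no measure of how many genes differed in each set. Of the 134, 24 were among the 28 interaction genes, which is 17.9% of the former and 85.7% of the latter. The 113 genes that rose in the higher-numbered set had a median difference of 0.84 there and of 0.02 in the lower-numbered set, where 60 of them were above 0. The 21 that fell had a median of -0.39 there and of -0.19 in the lower-numbered set, where 18 were below 0. These genes were chosen by their difference in the higher-numbered set, so a larger median there follows in part from the choice. That difference is also a term of the interaction, so the shares of 17.9% and 85.7% follow in part from it too. In the lower-numbered set 5 genes (0.0358%) rose and 6 (0.0429%) fell, or 3 and 6 with scaling by library size alone. Those that rose included Slc7a11, the cystine transporter and also an NRF2 target (0.58 ± 0.09), and Vcan, the matrix proteoglycan versican (0.54 ± 0.08). Those that fell included the NRF2 targets Hmox1, haem oxygenase (-0.31 ± 0.05), and Nqo1, a quinone reductase (-0.35 ± 0.05), and the stress factor Atf3 (-0.40 ± 0.06). Of the 19 NRF2 targets tested, 1 rose and 3 fell in the lower-numbered set. Pcsk1, a prohormone convertase, rose and Gstp1, a glutathione transferase, fell in both sets, and these 2 were the only genes called in both.

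The average of the within-set differences was a measure that the choice of genes did not use directly. It comes from the same libraries, and it is independent of the interaction only where both sets have the same spread. The SEs in the higher-numbered and lower-numbered sets were unlike for some called genes, such as Kcnj8 (0.31 and 0.21) and Rnd1 (0.18 and 0.15). For others, such as Mest (0.28 and 0.28), they were alike. The average is therefore not an independent test for all of these genes. By this test 91 of all genes (0.651%) passed, 68 (0.487%) higher and 23 (0.165%) lower with hAMSC, and of the 24 genes of positive interaction 15 were higher and 9 did not pass. A difference in 1 set alone enters the average at 0.5 of its size. The 15 may thus follow in part from the choice of genes. A pass on average does not mean a rise in both sets. Mest (2.44 in the higher-numbered and -0.24 in the lower-numbered set) and Ehd3 (1.15 and -0.29) had differences of opposite sign. The highest averages among the called genes that passed were those of Kcnj8 (1.63 ± 0.19, adjusted p = 0.000821), Lifr (1.19 ± 0.19, adjusted p = 0.00736) and Mest (1.10 ± 0.20, adjusted p = 0.0173), all from edgeR. Enpp3 (0.58 ± 0.06, adjusted p = 0.000547) and Adgrl4 (0.64 ± 0.08, adjusted p = 0.000821) passed among the surface genes. Ehd3 passed with 0.43 ± 0.08 (adjusted p = 0.0191) and Clec14a with 0.74 ± 0.11 (adjusted p = 0.0108), whereas Rnd1 (0.47, adjusted p = 0.128), Mt2A (0.50, adjusted p = 0.0687), Il1r1 (0.36, adjusted p = 0.0812) and Ccr7 (0.27, adjusted p = 0.23) did not. Of the 66 endothelial genes 9 were higher on average and 0 lower, with a median of 0.18. Of the 4 genes of negative interaction 0 passed.

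The number of interaction calls rested on single libraries. It was 0 without Veh 19 (1120 genes at an unadjusted p under 0.05), 2 without Veh 20, 4 without Veh 18, 6 without hAMSC 15, 8 without hAMSC 7, 20 without Veh 17, 135 without hAMSC 8 and 158 without hAMSC 16, and 102 with DESeq2 on all libraries. Ehd3 was called in 7 of these 8 omissions, with an interaction of 1.33 to 1.54 over all 18 alternatives, and Enpp3 in 6, Kcnj8 in 5, Rnd1 and Clec14a in 4 and Mest in 3.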

How the data were processed

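Polyadenylated rat RNA was sequenced from libraries made with a stranded kit, per the labels' protocols. The authors deposited expected counts for each gene, as RSEM estimates them; STAR and RSEM are named in the submitters' processing notes, with FastQC, Trim Galore, limma, rn6 and Rnor_6.0, and the sources used here give no version or role for them. RSEM shares reads among similar genes, so paralogs are uncertain. Of the deposited values 90.1% were whole.

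Expected counts were rounded and fitted with edgeR 4.0.16 in R 4.3.3 (filterByExpr, TMM factors of 0.973 to 1.03, robust glmQLFit, glmQLFTest, two-sided, Benjamini-Hochberg, threshold 0.05). The 12 libraries formed 6 cells of condition and set. In the contrasts the hAEC libraries served only to estimate the spread. They also entered the expression filter, the TMM scaling and the principal components. The common biological coefficient of variation was 9.76%. SEs were derived from the log2 difference and its F statistic. Of 32623 genes listed, 13976 were tested, and Col1a2 and Pecam1 were not analysed here.

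The members and gene lists were chosen with earlier results of these data known. Named were the 5 genes given, up to 15 called genes in each direction with a symbol and at least 1 CPM, next genes up to 10 where fewer were called, up to 4 per list by p, and relatives of the 5 genes. A gene that the rule names is not reported here. Other called genes were described after their values were seen. Nothing says that libraries came from separate cultures, and the p-values then reflect the spread of these libraries alone, which may be technical. Alternatives covered scaling (RLE size factors, upper quartile, library size), filters, DESeq2 1.42.0, limma 3.58.1 (voom), a fit that is not robust, 8 libraries alone and each library left out.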

Additional observations from a re-analysis of the deposited data

Results flagged for a closer look

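The hAMSC minus Veh difference differed between the library sets for 28 genes by the interaction test of edgeR. They are the genes described above, and Ehd3 had the smallest adjusted p, 0.00325. The sets come from the expression values and not from the labels.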

How the results depend on the processing

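Direction held for the 28 genes in all of 500 gene and setting combinations, of which 271 kept the call and 229 lost it; the fewest calls were those of Adamts1, Engase and Lifr, 6 each. The interaction count of 28 became 533 with no expression filter, 102 with DESeq2 (27 shared), 4 with limma voom, 4 with voom and quality weights, 14 with a fit that is not robust and 12 with 8 libraries alone. The count of 134 in the higher-numbered set became 506 with no filter, 52 with voom, 50 with quality weights and 83 with 8 libraries. The count of 11 in the lower-numbered set became 531 with no filter, 115 with DESeq2, 0 with edgeR's fit that is not robust (1644 genes at an unadjusted p under 0.05) and 1 with 8 libraries. The average's 91 became 561 with no filter, 169 with DESeq2, 51 with voom and 43 with quality weights. With 1 library left out at a time the counts ran from 0 to 158 for the interaction, from 47 to 165 in the higher-numbered set, from 0 to 50 in the lower-numbered set and from 41 to 137 for the average. Counts moved by over 1.5 times in the higher-numbered set without hAMSC 15 (51), Veh 19 (47) or Veh 20 (47). In the lower-numbered set they did so without hAMSC 7 (1), hAMSC 8 (6), hAMSC 15 (50), hAMSC 16 (50), Veh 17 (3), Veh 18 (0 with edgeR, 1041 at an unadjusted p under 0.05) or Veh 19 (1), and for the average without hAMSC 8 (55), hAMSC 15 (137), Veh 17 (57), Veh 18 (41) or Veh 19 (44). A library left alone in its cell was assumed to vary like the others. With no filter, genes at or near 0 enter the test; the cause of the other shifts was not tested. Other scalings moved the median of all genes by less than 0.04. The medians of the endothelial lists moved by more than their spread in 11 of 54 settings, without a change of sign. No paired analysis was possible because sample numbers are not shared between groups. With 2 libraries per cell, counts of calls are imprecise.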

Other observations

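Levels of some genes that differed at least 16-fold between the Veh libraries of the sets, with at least 50 CPM in the higher of them, are given for the higher-numbered set. They were chosen after the values were seen, and by the same Veh libraries that the hAMSC libraries are set against, so their direction follows in part from the choice and is a description only. Of the 19 such genes that were high in the lower-numbered set, 15 (48.4% of all genes tested were above 0) were higher with hAMSC than with Veh in the higher-numbered set, and 5 passed (0.809% of all genes rose there). Cyp4f5 was at 25.4 and 19.8 CPM with hAMSC and at 9.03 and 6.47 CPM with Veh. Adamts7, a metalloprotease, was at 7.21 and 5.83 against 2.65 and 2.89 CPM, and Ccl6, a chemokine, at 116.1 and 116.4 against 84.7 and 80.4 CPM. Other chemokines had like levels in both conditions: Ccl9 was at 117.5 and 117.8 against 118.4 and 119.4 CPM, and Ccl7 at 11.3 and 10.5 against 11.6 and 10.5 CPM.

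Of the 12 genes that were high in the higher-numbered set, 12 were lower with hAMSC than with Veh there, with a median of -0.23. Of all genes tested 48.4% were above 0, and this direction too follows in part from the choice. Among the 12, 1 passed (0.15% of all genes fell there). This gene, Fcrl2, an Fc receptor-like gene, was at 161.6 and 162.8 CPM with hAMSC and at 243.9 and 236.4 CPM with Veh. Apoe, the lipid carrier that macrophages secrete, was at 4440 and 5323 CPM with hAMSC and at 5502 and 6048 CPM with Veh, and Cx3cr1, the fractalkine receptor of monocytes, at 33.4 and 27.5 against 50.8 and 52.1 CPM. The differences of Apoe and Cx3cr1 did not pass.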
